A study of Mus musculus with 16 samples.

Results

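Livers of male mice aged 3 weeks in which Cdh1 was depleted were compared with livers of littermates without the depletion. The 6 livers are those that the labels give the age of 3 weeks, out of 16 in the series, and all named genes on the array were compared. Both groups shared 2 floxed Cdh1 alleles (fl/fl). The 3 mice called Cre here also carried the deleting transgene (genotype fl/fl with +/wt), and the 3 control mice did not (fl/fl with wt/wt). The transgene is labelled cdh1albcre; the labels do not spell out its promoter, and the series' text calls the depletion liver-specific. Mice with Cre and unfloxed Cdh1 were not among the groups, so Cre itself and the loss of Cdh1 cannot be told apart. Mice were on standard chow without access to food for the last 6 hours, and a piece of the left lobe was taken. The sources used here give no strain. Numbers 1 to 3 within a group follow the order of deposition and only name a mouse. With 3 mice a group at 3 weeks, p-values measure change against the spread between mice within groups, estimated over all 16 livers of the series.

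E-cadherin, the product of Cdh1, is a transmembrane protein that binds its like on the neighbouring cell. Inside the cell it holds p120 catenin and beta-catenin, and alpha-catenin links the complex to actin. In the liver it joins bile duct cells and periportal hepatocytes, while N-cadherin (Cdh2) is found on hepatocytes across the lobule. At weaning the rodent liver leaves the phase of rapid growth, and hepatocytes take on adult drug, steroid and lipid metabolism.

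Signal is on the log2 scale after subtracting each array's 75th percentile, and a difference of 1 is a doubling. Between 71.2% and 74.4% of 55681 probes were well above background in each of the 6 livers, and none was saturated. Over all genes, the SD of the log2 difference between livers was 0.371 to 0.467 among control mice, 0.427 to 0.545 among Cre mice and 0.465 to 0.632 between the groups. The 10 hepatocyte markers, albumin and transthyretin among them, had a mean signal between 8.50 and 8.78 in every liver, which fits the labelled tissue. Their median change was -0.09, which changed sign in 5 of 23 other settings, and 0 passed the test. In a tissue piece, fewer cells of a type and less RNA per cell cannot be told apart. The arrays lay on 2 slides: slide 1 held control 1, Cre 1 and Cre 2, and slide 2 held control 2, control 3 and Cre 3. The titles place control 1, control 2 and Cre 1 in what may be 1 litter and the other 3 mice in another.

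Cdh1 signal was lower in all Cre livers. Control livers 1, 2 and 3 read 0.69, 0.59 and 0.76, and Cre livers 1, 2 and 3 read -1.58, -2.56 and -0.60; values below follow the same order. The groups did not overlap, and the Cre livers were spread more widely (SD 0.978 against 0.088), with Cre 2 lowest and Cre 3 highest. Cdh1 fell 4.79-fold (log2 change -2.26 ± 0.35 (SE), limma adjusted p = 0.0211). The Cdh1 change at 3 weeks was -2.15 with a term for slide (adjusted p = 0.0343) and -2.76 and -1.28 within slides 1 and 2. Without control 3 it was -2.22 with an adjusted p of 0.0815, and with the 6 arrays fitted alone the adjusted p was 0.139. The sources used here do not tell whether the Cdh1 probe reads a deleted exon.

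Partners of E-cadherin did not pass the test. Over all genes 1.86% passed, so lists this short would hold few calls in any case. Of 13 adherens junction genes measured, Cdh1 was the member that passed, and the list's median change was 0.01, with the opposite sign in 10 of 23 other settings. N-cadherin signal was 3.90, 4.01 and 4.10 in control and 3.72, 3.78 and 3.61 in Cre livers, a change of -0.30 ± 0.09 (adjusted p = 0.0971). Its groups did not overlap, and 12.9% of all genes had every Cre liver below every control liver. Beta-catenin (Ctnnb1) changed by -0.10 ± 0.11, alpha-catenin (Ctnna1) by -0.11 ± 0.11 and p120 catenin (Ctnnd1) by -0.12 ± 0.08, with overlapping groups for each. P-cadherin (Cdh3), another classical cadherin, was -4.63, -4.73 and -4.66 in control and -5.05, -4.45 and -3.05 in Cre livers, so its groups overlapped as well. Among 17 tight junction genes and 9 gap junction and desmosome genes 0 passed, with medians of 0.10 and 0.12. The hepatocyte connexin Gjb1 changed by -0.40 ± 0.13 (adjusted p = 0.12).

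Across the genome 321 genes changed, 87 up and 234 down, of 17300 tested (limma adjusted p at most 0.05). That is 1.86% of the genes, 0.503% up and 1.35% down. The median change of all genes was -0.02. Of the 321, 72 changed at least 2-fold, 25 up and 47 down. The 2 groups did not overlap for any of the 321, while 9.66% of all genes had every Cre liver above every control liver and 12.9% had every Cre liver below. A fit with a slide block called 183 genes and 161 of them were among the 321, and a fit with a block for the inferred litter called 374, of which 193 were shared. The count moved with every liver at 3 weeks: it was 618 without Cre 1, 503 without Cre 2, 7 without Cre 3, 65 without control 1, 69 without control 2 and 9 without control 3. With the 6 arrays fitted alone it was 4. The genes called with each of the 6 livers left out in turn were Sult3a1, a sulfotransferase, Dnajb11, an endoplasmic reticulum chaperone, Gnat2, a transducin subunit of cone cells, and 1700057G04Rik. Sult3a1 was kept for testing through the control livers of 3 weeks, the group where it is high.

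**Figure D1:**
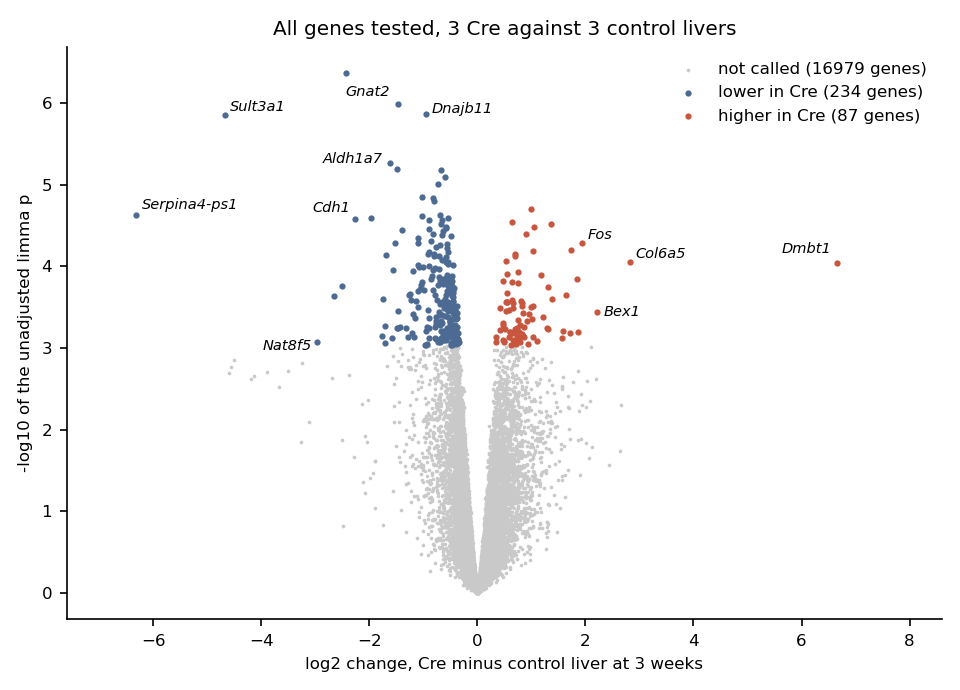
Each point is 1 of 17300 genes, with the log2 change of Cre against control livers at 3 weeks on the x axis and -log10 of the unadjusted limma p on the y axis. The 234 genes lower in Cre outnumber the 87 higher, and Serpina4-ps1 (-6.31) lies far out on the lower side; for genes not well above background in some or all livers of a group, such as Dmbt1 and Sult3a1, the plotted change is the measured one and not a fold that can be read exactly.

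Genes of cell division were lower in Cre livers. All 30 measured members of the cell cycle list had a lower mean, 22 of them with no overlap between the groups, against 12.9% of all genes. Against 1.35% of all genes, 9 of the 30 fell: Birc5, Kif20a, Cdkn3, Cdc20, Ccna2, Ccnb2, Cdk1, Foxm1 and Pcna. The median change was -0.77, against -0.02 over all genes, and -0.59 and -0.98 within slides 1 and 2. The mean signal of the list was 0.47, 0.64 and 0.75 in control livers and -0.11, -0.07 and -0.27 in Cre livers. Thus every Cre liver lay below every control liver. Among 16 cell cycle inhibitors and p53 targets 0 passed and the median was 0.06; the inhibitor Cdkn2c changed by -0.52 ± 0.15 (adjusted p = 0.08).

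The promoters of Ccnb2, Cdc20 and Cdk1 are shown because these 3 genes of G2 and mitosis fell together. Sequences are RefSeq's on GRCm38.p6, from 130 bases before the annotated start to 30 after it, 5′ to 3′ on the gene's strand. Capitals mark CCAAT (or ATTGG on the other strand), the letters bound by NF-Y, and TTTGAA or TTCGAA, the core of the cell cycle homology region.
Ccnb2, chr9:70421525-70421684 (- strand): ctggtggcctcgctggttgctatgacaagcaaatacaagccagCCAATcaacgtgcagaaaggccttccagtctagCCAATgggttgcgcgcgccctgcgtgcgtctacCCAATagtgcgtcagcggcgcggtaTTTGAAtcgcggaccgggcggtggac
Cdc20, chr4:118437314-118437473 (- strand): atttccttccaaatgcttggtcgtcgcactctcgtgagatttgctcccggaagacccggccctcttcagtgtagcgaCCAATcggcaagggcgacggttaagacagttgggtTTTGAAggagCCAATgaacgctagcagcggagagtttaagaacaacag
Cdk1, chr10:69352883-69353042 (- strand): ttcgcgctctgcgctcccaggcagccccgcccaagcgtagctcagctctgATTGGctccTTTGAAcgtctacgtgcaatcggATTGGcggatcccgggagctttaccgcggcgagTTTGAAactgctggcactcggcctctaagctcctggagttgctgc
Ccnb2 holds CCAAT at -87, -54 and -21 and TTTGAA at 5, counted from the start. Over windows from 250 bases before to 50 after the start, searched on both strands, CCAAT was present in 21 of 26 windows of cell cycle genes (80.8%; 25 of the 30 genes matched) and in 37.4% of all 32851 windows. TTTGAA or TTCGAA was present in 14 of the 26 (53.8%) and in 19.2% of all windows. These matches describe the letters and are not shown to be sites in use.

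Cyclin B2 (Ccnb2), a partner of Cdk1 in mitosis, was 1.73, 2.11 and 2.05 in control livers and 1.05, 0.84 and 0.83 in Cre livers. No Cre liver reached the lowest control, and the gene fell 2.09-fold (-1.06 ± 0.20, adjusted p = 0.0312). Cyclin A2 (Ccna2), of S phase and G2, was 0.92, 1.11 and 0.95 in control and 0.00, -0.10 and -0.15 in Cre livers. It fell by 1.08 ± 0.20 on the log2 scale (adjusted p = 0.0266). Cdc20, an activator of the anaphase-promoting complex, was 1.71, 1.76 and 2.05 in control and 1.04, 0.61 and 0.59 in Cre livers (-1.09 ± 0.22, adjusted p = 0.0365; 0.0523 with slide and 0.0681 with litter as a block). Birc5, or survivin, of the chromosomal passenger complex, showed the largest change among the list's called members. Its signal was 3.23, 3.65 and 3.57 in control and 2.58, 2.18 and 2.00 in Cre livers (-1.23 ± 0.25, adjusted p = 0.0344; 0.0515 and 0.0676 with those blocks). Foxm1, a transcription factor of the G2 programme, fell by 0.71 ± 0.15 (adjusted p = 0.045; 0.0527 and 0.0688 with those blocks); with the mean of its probes the change of Foxm1 was -0.57 (0.224). Mki67, the gene of the proliferation marker Ki-67, was 1.82, 2.19 and 1.83 in control and 1.34, 1.18 and 1.14 in Cre livers and did not pass (adjusted p = 0.153). Ccnd1, the cyclin of G1, overlapped between the groups (-0.41 ± 0.46), as did the replication helicase gene Mcm2 (-0.02 ± 0.30).

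Other division genes were called by their size of change or grouped by name after their values were seen. Esco2, the acetyltransferase of sister chromatid cohesion, was -2.45, -2.24 and -2.04 in control and -3.80, -3.47 and -4.12 in Cre livers and fell 2.94-fold (adjusted p = 0.027). Ttk, the kinase of the spindle checkpoint, was -4.42, -3.94 and -3.22 in control and -5.40, -4.85 and -6.09 in Cre livers, where 1 of 3 was well above background. It fell by 1.58 ± 0.36 (adjusted p = 0.0464; 0.0522 with slide and 0.0596 with litter as a block). Of 21 centromere proteins 6 fell (Cenpk, Cenpm, Cenpp, Cenpq, Cenpu and Cenpw) with a median of -0.47, where 1.35% of all genes fell. Of 38 DNA replication genes 6 fell (Gins1, Gins2, Gins4, Pcna, Pole and Prim1) with a median of -0.37. Of 6 genes named cell division cycle associated, 4 fell: Cdca2, Cdca3, Cdca5 and Cdca8. The medians of these groups and of the cell cycle list kept their sign in 23 of 23 other settings. Their calls did not: 2 members of the cell cycle list were called with slide as a block, 3 with litter as a block, 10 without Cre 1, 6 without Cre 2 and 0 without Cre 3 or without any of controls 1 to 3.

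Genes for entry into the endoplasmic reticulum, and for glycosylation and folding of proteins there, were also lower. These families were drawn up by gene symbol after the values were seen. The first holds the Sec61 translocon, the signal recognition particle, its receptor and partners, and signal peptidase. Of its 26 members 10 fell, against 1.35% of all genes, and 24 were lower, with a median of -0.33. Its called members were Sec61a1, Sec61b, Sec61g, Sec11c, Spcs2, Spcs3, Srp9, Srp72, Ssr1 and Ssr3. Of the 12 subunits of oligosaccharyltransferase and its partners, which attach N-glycans, 4 fell (Krtcap2, Ostc, Rpn1 and Rpn2) and all 12 were lower, with a median of -0.41. Of 12 disulfide isomerases and oxidoreductases, 4 fell (Erp44, Pdia3, Pdia4 and Pdia6), with a median of -0.33. The next station, the COPII coat that buds vesicles to the Golgi, had 0 of 13 called and a median of -0.10, which turned above 0 with quantile normalization.

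The translocon family's mean signal was 2.94, 2.96 and 2.98 in control livers and 2.52, 2.60 and 2.59 in Cre livers. The control livers lay close together, and all Cre livers were lower. Sec61b, a subunit of the channel itself, was 5.79, 5.79 and 5.91 in control and 4.86, 5.29 and 5.02 in Cre livers (-0.78 ± 0.14, adjusted p = 0.0266). Rpn1, ribophorin I of the glycosylating complex, was 5.23, 5.28 and 5.65 in control and 4.68, 4.83 and 4.53 in Cre livers (-0.71 ± 0.15, adjusted p = 0.0389; 0.0515 with slide as a block). Uggt1, the glucosyltransferase that checks glycoprotein folding and belongs to none of the lists, was 3.34, 3.37 and 3.40 in control and 2.70, 2.84 and 2.57 in Cre livers (-0.67 ± 0.11, adjusted p = 0.0211).

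**Figure D2:**
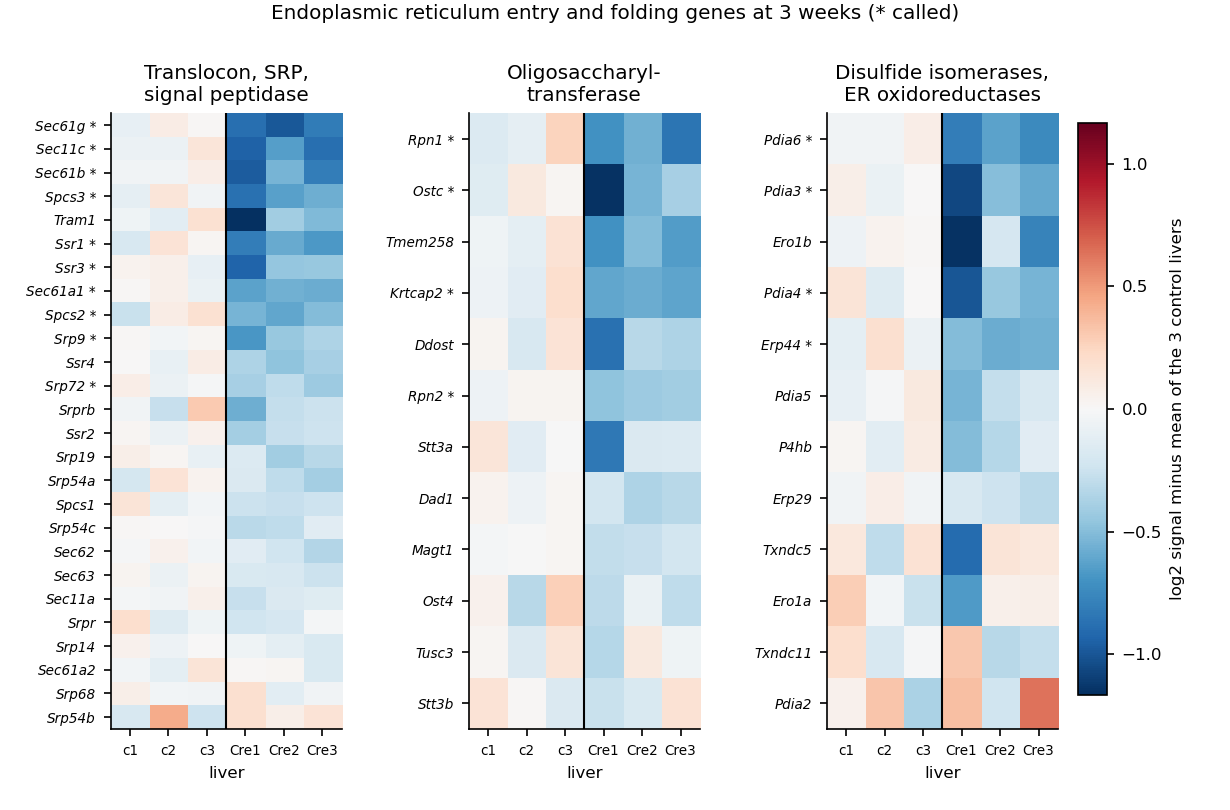
Each row is a gene and each column a liver (c1 to c3 control, Cre1 to Cre3); colour gives the log2 signal minus the mean of the 3 control livers, and stars mark called genes. Blue fills most of the Cre columns in the 3 families, whose medians were -0.33, -0.41 and -0.33.

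The chaperones of the unfolded protein response moved in part. Of the 24 measured endoplasmic reticulum stress genes 3 fell (Manf, Pdia4 and Pdia6), against 1.35% of all genes. In all 17 were lower and 7 higher, and the median was -0.48. Every Cre liver lay below every control liver for 13 of the 24, against 12.9% of all genes, and above for 2, against 9.66%. Manf, a secreted stress-responsive protein of this compartment, was 3.19, 3.37 and 3.39 in control and 2.05, 2.36 and 2.28 in Cre livers and fell 2.12-fold (adjusted p = 0.0229). Pdia6, a disulfide isomerase, was 6.45, 6.45 and 6.57 in control and 5.68, 5.87 and 5.75 in Cre livers and fell 1.65-fold (adjusted p = 0.0481; 0.0592 with slide as a block). Dnajb11, a co-chaperone of BiP that is not on the list, was 3.65, 3.69 and 3.55 in control and 2.52, 2.81 and 2.70 in Cre livers (-0.95 ± 0.11, adjusted p = 0.00609). BiP itself (Hspa5) was 6.78, 6.85 and 6.62 in control and 6.30, 6.14 and 6.30 in Cre livers and did not pass (-0.50 ± 0.13, adjusted p = 0.0714). Genes of the stress response downstream did not pass: Ddit3, the factor CHOP, changed by 0.56 ± 0.19, Ppp1r15a, which restores translation, by 0.68 ± 0.21, and Atf4 by 0.05 ± 0.14 (adjusted p from 0.0937 to 0.888).

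The promoters of Pdia6 and Dnajb11 are shown because each holds a form of the endoplasmic reticulum stress response element. Capitals mark CCAAT followed after 9 bases of any kind by CCACG in Pdia6 (the longer form) and ATTGG followed after any 1 base by CCACG in Dnajb11 (the shorter form), in the same window and build as above.
Pdia6, chr12:17266459-17266618 (+ strand): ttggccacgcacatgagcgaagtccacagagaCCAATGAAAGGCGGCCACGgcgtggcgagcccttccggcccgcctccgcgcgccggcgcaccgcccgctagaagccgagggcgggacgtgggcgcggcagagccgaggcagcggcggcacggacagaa
Dnajb11, chr16:22857715-22857874 (+ strand): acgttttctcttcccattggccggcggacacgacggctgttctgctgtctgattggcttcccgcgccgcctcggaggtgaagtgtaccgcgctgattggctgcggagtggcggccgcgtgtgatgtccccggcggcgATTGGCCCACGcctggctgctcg
The longer form was present in 7 of 21 windows of endoplasmic reticulum stress genes (33.3%; 21 of 24 genes matched) and in 0.119% of all windows, 39 of 32851. In the 3 families above it was present in 2 of 47 windows. The shorter form was present in 0.0365% of all windows. Both forms contain the CCAAT letters, were searched on both strands and were chosen after the values were seen.

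Across these groups the calls again depended on the slide and on individual livers. Of the translocon family 7 members were called with slide as a block, 10 with litter as a block, 10 without Cre 1, 11 without Cre 2, 0 without Cre 3, 3 without control 1, 1 without control 2 and 0 without control 3. Of the oligosaccharyltransferase and disulfide isomerase groups 1 member each was called with slide as a block. Of the endoplasmic reticulum stress list 2 were called with slide as a block and 6 with litter as a block. The medians of the stress list and of the first 3 families kept their sign in 23 of 23 other settings.

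The largest falls included Serpina4-ps1, Sult3a1 and several genes of enzymes and plasma proteins, taken by size of change and not as a list. Serpina4-ps1, a serpin pseudogene transcript, was 3.19, 1.17 and 3.48 in control and -4.21, -1.39 and -5.47 in Cre livers (-6.31 ± 0.97, adjusted p = 0.0211). Control 2 and Cre 2 lay nearest to each other, and the gap between the groups was still wide. Its control mean was -3.70 at 1 week and 4.76 at 6 weeks of age. Sult3a1 was -1.43, -4.02 and -2.14 in control and -7.31, -6.29 and -8.02 in Cre livers, none of which was well above background. It was at least 9.71-fold lower in Cre livers (adjusted p = 0.00609). Such a bound sets the mean of the brighter group against the lowest signal that counts as well above background in the dim livers. Control means of Sult3a1 were -8.37 at 1 week and -7.07 at 6 weeks, lower than at 3 weeks. Its probe was kept for testing because it was well above background in the control livers of 3 weeks, the group where it is high. Its p-value is therefore no separate support for the fall.

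Nudt7, which hydrolyses coenzyme A in peroxisomes, was 5.43, 4.75 and 5.98 in control and 3.20, 3.96 and 3.08 in Cre livers and fell 3.93-fold (adjusted p = 0.0211). Srd5a1, the steroid 5-alpha-reductase, was 1.92, 1.72 and 3.14 in control and 0.53, 0.91 and 0.26 in Cre livers and fell 3.23-fold (adjusted p = 0.0238). Aldh1a7, an aldehyde dehydrogenase, was 4.99, 4.63 and 5.48 in control and 3.31, 3.53 and 3.44 in Cre livers and fell 3.05-fold (adjusted p = 0.0164). Within each gene the lowest control liver stood above the highest Cre liver, as the groups stood apart in all 321 called genes. Orm1, an acute phase plasma protein, was 4.38, 3.98 and 3.69 in control and 1.96, 3.38 and 1.57 in Cre livers. It fell 3.28-fold (adjusted p = 0.0482, or 0.0588 with slide and 0.0655 with litter as a block). Of 23 acute phase genes Orm1 was the member that passed, while 18 were higher and 5 lower, with a median of 0.09. Over all genes 1.35% fell. Ces1f, a carboxylesterase, fell 3.28-fold (0.0453; 0.0608 with slide as a block) and Serpina9 5.70-fold (0.0297). Nat8f5, of an N-acetyltransferase family, was not well above background in Cre livers and at least 3.09-fold lower (0.0481; 0.0655 with slide as a block). Acsm2, which activates medium-chain fatty acids, cleared the background in 1 of 3 Cre livers and fell by 2.65 ± 0.52 (0.0328).

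For Nudt7, Srd5a1, Aldh1a7, Ces1f and Orm1 the control means were 2.16, 0.40, 1.38, 0.48 and -3.91 at 1 week and 6.89, 5.27, 5.51, 6.07 and 6.65 at 6 weeks. Each gene's control and Cre means at 3 weeks both lay between those values. Not every large fall did so. Atp8b5 had a Cre mean of -4.91 at 3 weeks and control means of -2.81 at 1 week and -3.32 at 6 weeks. For Serpina9 these were -2.28, -2.24 and -0.71. The cell cycle list went the other way with age, with a control mean signal of 1.94 at 1 week and -1.81 at 6 weeks. Its means at 3 weeks were 0.62 in control and -0.15 in Cre livers, so there Cre lay on the side of the older age. The ages are set side by side with no test. At 6 weeks the change between Cre and control was -0.48, -0.19, 0.29, -0.01 and -0.15 for the same 5 genes, and none of these passed. Serpins, sulfotransferases and carboxylesterases come in families of near-identical genes, so their probes may read more than 1 of them. The 15 largest falls also held Olfr1474, an olfactory receptor (-1.76 ± 0.40, adjusted p = 0.0464; 0.0642 with slide and 0.0757 with litter as a block), and Atp8b5, a flippase (-1.75 ± 0.35, 0.0344), whose other probe gave -0.03.

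**Figure D3:**
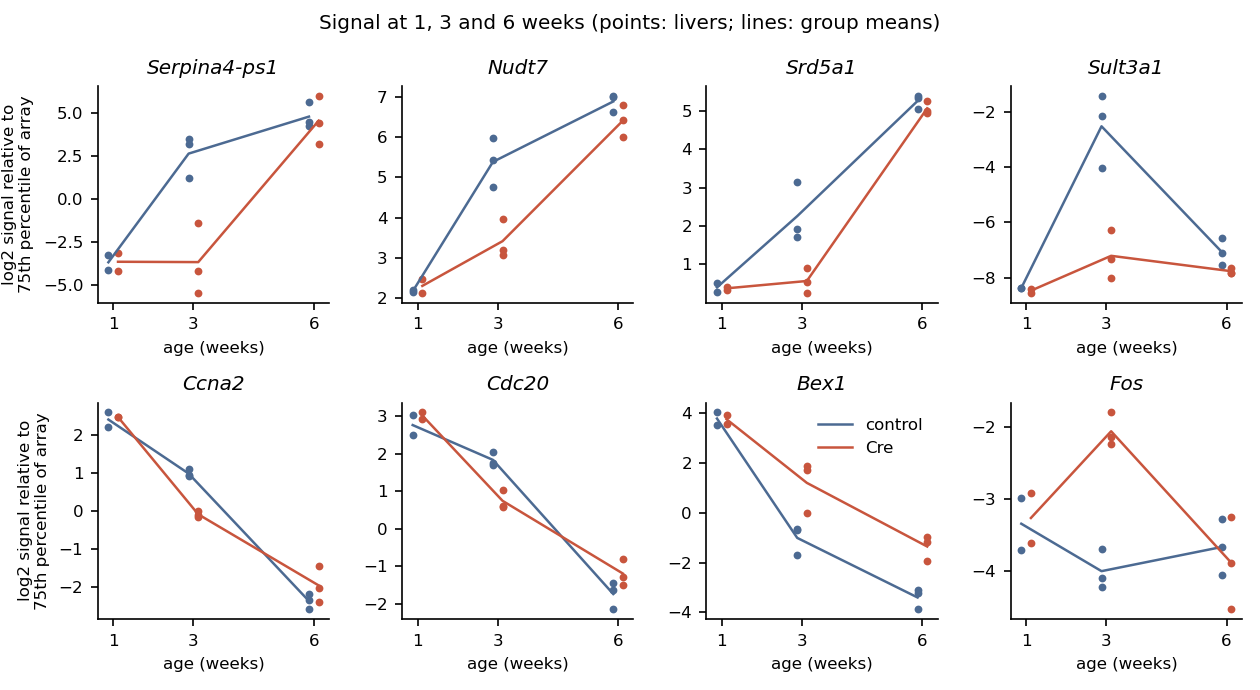
Each panel plots the log2 signal of a gene against age in weeks, with points for livers and lines through group means (2 mice a group at 1 week, 3 at 3 and 6 weeks). The Cre mean of Serpina4-ps1, Nudt7 and Srd5a1 is below control at 3 weeks and closer to it at 6 weeks (changes of -0.24, -0.48 and -0.19), while Bex1 stays above control at both ages.

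Conjugating enzymes were lower in part. Over all genes 1.35% fell, the share to set beside each count here. Of 14 UDP-glucuronosyltransferases 3 fell (Ugt2b1, Ugt2b5 and Ugt2b37) and 12 were lower, with a median of -0.48. Ugt2b5, which glucuronidates steroids and drugs, was 5.67, 5.47 and 5.85 in control and 4.79, 5.03 and 4.98 in Cre livers and fell 1.66-fold (adjusted p = 0.0187). Of 16 sulfotransferases 3 fell (Sult3a1, Sult1b1 and Sult2a8, the last with 0.052 under the slide block), yet 10 were higher and the median was 0.31. Sult1b1, a cytosolic phenol sulfotransferase, was 2.90, 2.88 and 3.02 in control and 1.77, 2.25 and 1.76 in Cre livers and fell 2.01-fold (adjusted p = 0.0266). Gstm6 was the member that fell among 22 glutathione S-transferases (median -0.29; adjusted p of Gstm6 0.0588 with slide as a block), and 0 of 90 P450 genes passed (median -0.08). Of 28 genes of bile acid synthesis and transport 0 passed.

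Of 23 genes known for higher expression in male liver 20 were lower, 11 of them with no overlap, against 12.9% of all genes. Against 1.35% of all genes, 2 of the 23 fell, Nudt7 and Ugt2b1 (-1.18 ± 0.25, adjusted p = 0.0389). The median was -0.84, and -0.66 and -1.07 within slides 1 and 2. The list's mean signal was 2.68, 2.04 and 3.66 in control and 1.42, 2.01 and 1.29 in Cre livers, so control 3 was highest and control 2 lay near Cre 2. Its control mean also rose with age, from 0.57 at 1 week to 5.31 at 6 weeks, and its median change at 6 weeks was -0.40. Hsd3b5, a steroid dehydrogenase and the member with the largest difference, was 1.45, 0.11 and 4.52 in control and -2.76, -0.92 and -3.76 in Cre livers (-4.51 ± 1.11, adjusted p = 0.0557). Of 29 genes known for higher expression in female liver 21 were higher, with a median of 0.23 that was 0.08 without control 3, and the member that passed, Sult3a1, fell. Among 13 genes of the growth hormone and STAT5 axis 0 passed, and the receptor Ghr was 4.71, 4.84 and 4.81 in control and 4.17, 4.30 and 4.16 in Cre livers (-0.58 ± 0.16, adjusted p = 0.0771).

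In lipid and energy metabolism few genes passed. Elovl6, which elongates palmitate, was 2.72, 2.28 and 3.24 in control and 0.63, 2.06 and 1.28 in Cre livers and fell 2.69-fold (adjusted p = 0.0453; 0.0586 with slide as a block). It was the member that passed among 23 lipogenesis genes, whose median was -0.26, and 0.04 within the litter of control 3, Cre 2 and Cre 3. Of 24 cholesterol synthesis genes 21 were lower with a median of -0.49, and 0 passed. Idi1, an early enzyme of sterol synthesis, was 4.49, 4.66 and 5.44 in control and 3.68, 4.21 and 3.31 in Cre livers (-1.13 ± 0.32, adjusted p = 0.0829). Pfkfb1, which sets fructose 2,6-bisphosphate, fell 1.48-fold (adjusted p = 0.0453; 0.06 with slide and 0.0596 with litter as a block), as did Taldo1 of the pentose phosphate pathway (0.0315). Of 29 fasting and fatty acid oxidation genes 0 passed, and their median was -0.13 within slide 1 and 0.45 within slide 2. Of 46 genes of respiratory complex I and its assembly 45 were lower, 29 with no overlap against 12.9% of all genes, but the size was small (median -0.27). Ndufaf2 was the member that fell (adjusted p 0.054 with slide and 0.0539 with litter as a block), where 1.35% of all genes fell. Of 38 proteasome genes 3 fell (Psma1, Psma3 and Psmd14; median -0.25). Of 77 cytosolic ribosomal protein genes 73 were lower and 0 passed, with a median of -0.10 that was 0.18 within the litter of control 1, control 2 and Cre 1 and also above 0 with quantile normalization and without Cre 2.

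Among the genes that rose, several are known from ductal and mucosal epithelium. Dmbt1, a secreted mucosal pattern-binding protein, was -7.58, -5.16 and -7.66 in control and 0.44, -0.42 and -0.46 in Cre livers. Dmbt1 was well above background in 1 control liver, and every Cre liver was far brighter (adjusted p = 0.0258). Its measured difference of 6.65 ± 1.18 rests in part on control signal not well above background. Tspan8, a tetraspanin of secretory epithelia, was -4.33, -4.20 and -4.36 in control and -2.64, -2.36 and -2.28 in Cre livers and rose 3.65-fold (adjusted p = 0.0456). Mmp7, or matrilysin, a protease of glandular epithelium, was -3.17, -3.05 and -3.71 in control and -1.93, -1.53 and -1.56 in Cre livers and rose 3.11-fold (0.0327). Tff2, a trefoil peptide secreted with mucus, was -4.26, -4.13 and -3.94 in control and -2.81, -2.60 and -2.18 in Cre livers and rose 2.99-fold (0.0456). For these 4 genes, as for all 321 called genes, no control liver overlapped a Cre liver. Klf5, an epithelial transcription factor, rose 2.48-fold (0.0453). Under the slide block the adjusted p of Tspan8, Mmp7, Tff2 and Klf5 was 0.06, 0.0506, 0.0544 and 0.062, and with litter as a block 0.0818, 0.0567, 0.0571 and 0.0757, so those calls were lost, while Dmbt1 kept its call in both (0.0343 and 0.0252).

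Bile duct markers were higher beside them. Of the 19 cholangiocyte and progenitor genes 17 were higher, 7 with no overlap, and 2 rose (Dmbt1 and Tspan8), with a median of 0.43. Over all genes 9.66% had every Cre liver above every control liver, and 0.503% rose. All 9 defining bile duct markers were higher, 5 with no overlap, but 0 passed, and their mean signal ran from -2.95 to -2.65 in control and from -2.35 to -2.03 in Cre livers. Krt19, a duct keratin, was -2.03, -2.53 and -2.15 in control and -1.32, -1.03 and -1.20 in Cre livers (1.06 ± 0.35, adjusted p = 0.116). Epcam, a duct adhesion molecule, was -4.49, -4.84 and -4.09 in control and -3.96, -2.79 and -2.65 in Cre livers (1.34 ± 0.45, adjusted p = 0.121). Their groups did not overlap either. The chloride channel Cftr (0.05 ± 0.24) had overlapping groups. Of 6 gallbladder and intestine markers 0 passed, with a median of 0.38, and the part of bile duct or gallbladder cells in these rises was not tested.

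**Figure D4:**
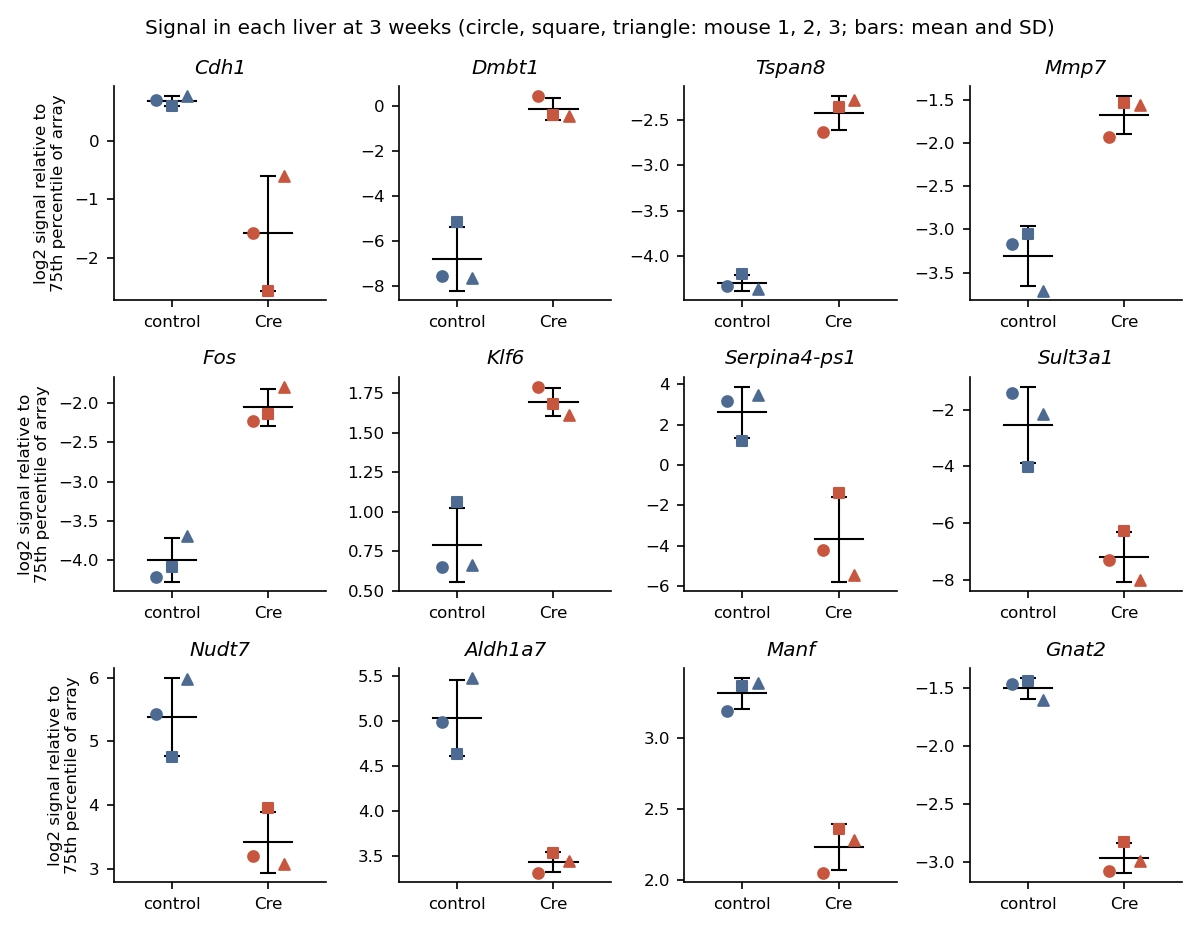
Each panel shows the log2 signal of a gene in the 6 livers at 3 weeks (circle, square and triangle for mice 1, 2 and 3), with the mean and SD of each group. In none of the 12 panels does a Cre liver overlap a control liver, which holds for all 321 called genes. Cdh1 and Serpina4-ps1 show the wide spread among Cre livers (SD 0.978 for Cdh1).

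Other rises came from genes with varied roles. Bex1, an adaptor protein of the fetal and newborn liver list, was -0.64, -0.68 and -1.71 in control and 1.87, 0.01 and 1.73 in Cre livers and rose 4.64-fold (adjusted p = 0.0378; 0.052 with slide as a block). Its control mean went from 3.79 at 1 week to -3.41 at 6 weeks, and its change at 6 weeks was 2.05. Bex1 was the member that passed among 21 fetal liver genes, of which 18 were higher (median 0.40). Over all genes 0.503% rose. Wnt10a, a Wnt ligand well above background in 1 of 3 control livers, rose by 1.85 ± 0.34 (0.0287) and was the member that passed among 29 Wnt ligands and receptors. Col6a5, a collagen VI chain, was at least 2.35-fold higher in Cre livers (0.0258), Lmo1, a LIM-domain factor, at least 1.83-fold (0.03), and Kif5c, a motor of axonal transport, likewise at least 1.83-fold (0.0457). Tmeff1, a membrane protein with follistatin-like domains, was at least 1.25-fold higher (0.0238). These 4 were not well above background in any control liver. Sec22a and Fam78b were also called but were well above background in 1 and 0 of the 6 livers, so no fold is given.

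**Figure D5:**
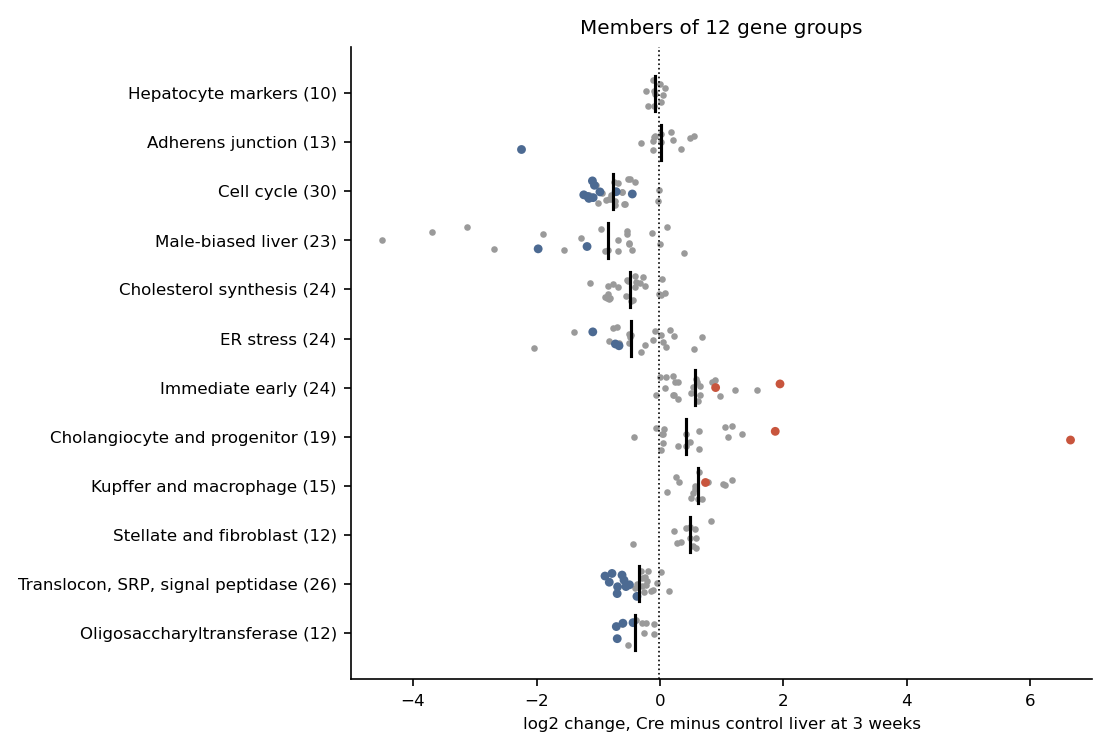
Each point is a measured gene of 1 of 12 groups, placed by its log2 change at 3 weeks; coloured points are called genes and black bars are medians, with group sizes in brackets. Cell cycle (-0.77), male-biased (-0.84) and endoplasmic reticulum groups lie below 0 and Kupffer cell (0.62), immediate early (0.56) and stellate (0.49) groups above, and the hepatocyte markers lie close to 0.

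Immediate early genes, which respond within minutes to growth factors, injury and tissue handling, were higher. Of 24 measured 22 were higher, 9 with no overlap, against 9.66% of all genes. Against 0.503% of all genes, 2 of the 24 rose, Fos and Klf6. The median was 0.56, and 0.41 and 0.49 within slides 1 and 2. The Fos promoter is shown because Fos had the larger rise of the 2. Its TATA box letters, TATAAA, are in capitals and start at -33, in the same build and window as above.
Fos, chr12:85473760-85473919 (+ strand): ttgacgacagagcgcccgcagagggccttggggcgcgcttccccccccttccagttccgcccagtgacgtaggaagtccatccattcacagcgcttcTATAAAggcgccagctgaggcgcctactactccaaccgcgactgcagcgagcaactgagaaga
TATAAA was present in 13.6% of all windows and in 3 of 24 windows of the list (20 of 24 genes matched). Fos, a subunit of AP-1, was -4.22, -4.09 and -3.69 in control and -2.23, -2.14 and -1.79 in Cre livers and rose 3.85-fold (adjusted p = 0.0229; 0.0337 with slide as a block). Klf6, a zinc finger factor, was 0.65, 1.06 and 0.66 in control and 1.79, 1.68 and 1.61 in Cre livers and rose 1.87-fold (0.0214). In both genes, as in all 321 called genes, the control and Cre livers stood apart. Its relatives in the early response were mixed: Atf3 was -1.63, -2.61 and -2.71 in control and -0.10, -1.57 and -0.55 in Cre livers (1.57 ± 0.43, adjusted p = 0.0756), while Fosb (0.09 ± 0.13), Zfp36 (0.00 ± 0.17) and Socs3 (0.07 ± 0.37) overlapped. The part of handling in the other differences was not tested.

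Markers of macrophages, endothelium and stellate cells stood higher in Cre livers with few calls, and those of red cell precursors did not. All 15 Kupffer cell and macrophage markers were higher, 10 with no overlap, against 9.66% of all genes. C1qa, a complement subunit made by macrophages, rose, as did 0.503% of all genes. C1qa was 2.45, 2.37 and 2.29 in control and 2.79, 3.46 and 3.02 in Cre livers (0.72 ± 0.17, adjusted p = 0.0486; 0.0624 with slide and 0.0841 with litter as a block). The markers' mean signal was 1.63, 1.76 and 1.63 in control and 2.05, 2.64 and 2.23 in Cre livers, with Cre 2 highest. Clec4f, which marks resident Kupffer cells, changed by 0.50 ± 0.14 (adjusted p = 0.0804). Ccr2, of recruited monocytes, was -4.50, -4.21 and -4.60 in control and -4.20, -2.55 and -3.07 in Cre livers (1.16 ± 0.53, adjusted p = 0.24).

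Of 12 endothelial markers 11 were higher and 0 passed (median 0.34; Eng 0.39 ± 0.10, adjusted p = 0.0557). Of 12 stellate cell and portal fibroblast markers 11 were higher and 0 passed (median 0.49; smooth muscle actin, Acta2, 0.49 ± 0.21). Of 28 fibrosis genes 26 were higher and Col6a5 was the member that rose, where 0.503% of all genes rose. Mmp14, a membrane-bound collagenase on the list of epithelial-mesenchymal transition, was -0.45, -0.88 and -1.06 in control and -0.19, -0.10 and 0.48 in Cre livers and rose 1.82-fold (adjusted p = 0.0464; 0.0608 with slide and 0.0841 with litter as a block). Nfkb2, a subunit of NF-kappaB, rose 1.51-fold (0.0457; 0.0783 with litter as a block) and was the member that passed among 27 cytokine and inflammation genes (median 0.51). Among 21 interferon response genes 0 passed, and the median of 0.31 was -0.19 within the litter of control 1, control 2 and Cre 1. Itga2b, an integrin of platelets and megakaryocytes, rose 1.54-fold (0.0493; 0.0681 with slide as a block), while 5 of the 7 markers of that list were lower. Markers of neutrophils, T and NK cells, B cells, red cell precursors, mesothelium, fat and muscle had 0 calls. Of the 13 red cell precursor markers 11 were lower (median -0.31), as were 5 of the 8 B cell markers (median -0.09). The mesothelial median of 0.68 was -0.57 within slide 1 and 1.28 within slide 2. Of 9 pancreatic acinar markers, Cela1 fell 2.88-fold (0.0229), where 1.35% of all genes fell. The part of these cells in the other differences was not tested.

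The livers of 6 weeks, which share no mouse with those of 3 weeks, were measured the same way. At 6 weeks 74 genes rose (0.428%) and 4 fell (0.0231%). Of the 87 genes that rose at 3 weeks 77 (88.5%) were higher in Cre at 6 weeks, against 52.0% of all genes, with a median of 0.32, and 12 of them rose there too. That is 12 of the 74 risers of 6 weeks. At 6 weeks the change was 2.52 for Tspan8, 2.42 for Mmp7 and 2.41 for Tff2, against 1.87, 1.64 and 1.58 at 3 weeks. Dmbt1 was well above background in 3 of 3 Cre and 0 of 3 control livers at 6 weeks. Of the 234 genes that fell at 3 weeks 154 (65.8%) were lower at 6 weeks, against 48.0% of all genes, with a median of -0.06. Cdh1 was the gene that fell at both ages (-2.74 at 6 weeks), and 1 of the 234 rose at 6 weeks. The cell cycle list had a median of 0.40 at 6 weeks, the translocon family -0.06 and the endoplasmic reticulum stress list -0.11.

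The difference of the change between 3 and 6 weeks was tested gene by gene, and 1 of 17300 genes passed (0.00578%), with 1441 at an unadjusted p under 0.05. That gene was Kif2c, a kinesin that frees microtubules from kinetochores. It was -3.31, -3.03 and -3.15 in control and -4.39, -4.14 and -4.02 in Cre livers at 3 weeks and fell 2.03-fold (adjusted p = 0.0287). At 6 weeks it was well above background in 0 of 6 livers, so its difference of -2.25 rests on values not well above background. The next smallest p-values were those of Gnat2, Parpbp, Cdca2 and Aldh1a7 on the same side and Fos, Prdm6, Adam18, Rnf224 and Vipr2 on the other, and none passed. Gnat2 was -1.47, -1.44 and -1.61 in control and -3.08, -2.83 and -2.99 in Cre livers, a fall of 2.75-fold at 3 weeks (adjusted p = 0.00609), with a change of 0.20 at 6 weeks. Fos, which rose at 3 weeks, changed by -0.23 at 6 weeks. For the cell cycle, endoplasmic reticulum and enzyme genes described above, a difference between the ages did not pass over all genes, apart from Kif2c.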

How the data were processed

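Liver RNA was measured on 1-colour Agilent arrays, 1 mouse each. The deposited intensity values come, per the file headers, from Feature Extraction 10.7.3.1 (protocol GE1_107_Sep09, mm9), and the processed signal is background-subtracted without normalization between arrays. The authors' deposited series matrix holds log2 values of 44817 features, column medians 7.63 to 7.78. All 16 columns were closest to their own array (Pearson's r at least 0.9933). Its scale is log2, the sources used here do not state its normalization or centring, and it served as an alternative.

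Non-control spots were analysed as log2 processed signal less their array's 75th percentile, without outlier spots and averaged per probe. Of 55681 probes 26576 matched a gene by accession in a RefSeq table of GRCm38.p6, used for names alone. The other 29105 entered 1 alternative. Probes well above background on all arrays of a group were kept, and the probe with the highest mean stood for its gene (17300 genes). limma 3.58.1 in R 4.3.3 fitted 6 group means over 16 arrays (lmFit, eBayes; two-sided; 10 residual and 2.6 prior degrees of freedom), with Benjamini-Hochberg adjustment over all genes at 0.05. Tested on simulated data of 17300 genes, this recovered 69% of 100 log2 changes of 1 and 97% of 100 of 2, with 14 false calls. The simulated noise was independent and normal, with 1 SD per gene on all arrays. Variation shared between genes and unequal spread of arrays were left out, so these numbers do not give the error of the real calls.

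The genes, lists and tests were chosen with earlier results of these data known. The rule names Cdh1, the 15 largest rises and 15 largest falls among called genes without overlap and without clone-type names, up to 6 called members of each list (or the 2 with the smallest p) and the 5 smallest p-values each way for the difference between ages. A few genes that the rule names are not reported here. Families by symbol, and genes named from them or as examples, were chosen after values were seen. Litters were inferred from titles, and labels carry no replicate numbers. Alternatives were slide or litter as a block, other scalings and filters, array weights, trended eBayes, the 6 arrays alone and each mouse left out. The number of arrays limits the precision.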

Additional observations from a re-analysis of the deposited data

Results flagged for a closer look

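The change of Kif2c differed between 3 and 6 weeks in the test of the difference itself (3 minus 6 weeks -2.25 on the log2 scale), with the probe not well above background in any liver of 6 weeks. For 3 of the named called genes the Cre and control livers stood apart in opposite directions at the 2 ages, a difference that did not pass over all genes. Aldh1a7 fell at 3 weeks (-1.61) and its change at 6 weeks was 0.29. Cdca2 fell (-1.02) against 0.27, and Rnf224, a RING finger gene, rose (0.41) against -0.16. Of all 234 genes that fell at 3 weeks, 13 had every Cre liver above every control liver at 6 weeks, against 1603 of all 17300 genes. Of the 87 that rose, 1 had every Cre liver below, against 1060 of all genes. The probes without a gene name, which no comparison above uses, were tested in a fit over all probes. Of 20581 such probes 26 passed, 10 up and 16 down, beside 75 named probes.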

How the results depend on the processing

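The count of 321 changed genes was 183 with slide as a block, 152 with quantile normalization, 160 without the filter on dim probes, 487 with probes well above background on all 6 arrays, 101 over all probes, 2577 with array weights, 632 with trended, robust eBayes and 4 with the 6 arrays alone, where Fam78b, Gnat2, Sfrp1 and Tspan8 were called. It was 279 (51 up, 228 down) with median scaling, 354 with the series matrix, 374 with litter as a block, 281 with the mean of a gene's probes and 321 (109 up, 212 down) with normexp and quantile normalization. It ranged from 7 to 618 with a mouse left out. The share of calls that were up was 27.1%, and 41.2% with array weights. The change of Cdh1 was -2.75 to -1.77 with a mouse left out, -2.26 with an adjusted p of 0.139 for the 6 arrays alone and -1.28 within slide 2. The count of genes whose change differed between ages was 1, and 3 with median scaling, 3 with array weights, 2 with trended eBayes, 0 with litter as a block, quantile normalization, normexp, the series matrix, no filter, the mean of probes or all probes, and 0 to 25 with a mouse left out. The cause of these shifts was not tested. Of the 57 named called genes besides Cdh1, 32 kept their call with slide and 39 with litter as a block, 20 over all probes, 3 with the 6 arrays alone and 2 to 43 with a mouse left out (2 without Cre 3, 4 without control 3, 13 without control 1). None of these genes changed direction. Medians of several lists did change sign, among them adherens junction genes in 10 of 23 settings and interferon, mesothelial, red cell precursor and lipogenesis genes in 1 of 23 each. The mean-signal column that a planned normexp correction needs is not used here; median signals replaced it, an alternative chosen after seeing the data. The labels carry no replicate numbers, so mice were matched only through the litter block.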
